A study of Mus musculus with 10 samples.

Results

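RNA-seq of parthenogenetic embryonic stem cells (pESCs) was compared with RNA-seq of embryonic stem cells from fertilized embryos (ESCs), with attention to pathways and gene families outside the imprinted and X-linked genes. The comparison used 4 of the 10 mouse libraries of the study, 2 of pESCs and 2 of ESCs. It covered the 13109 of 36066 genes with a value of at least 1 TPM (a transcript level scaled for length and library size) in at least 2 of these 4 libraries. The pESC lines came from Actin-GFP oocytes of the C57BL6 strain that were activated with strontium chloride and cytochalasin D, so both genome copies were maternal. The ESC lines were female and came from blastocysts of Actin-GFP females mated with Actin-GFP males. All lines therefore carried the same ubiquitous GFP transgene, were derived on mouse embryonic fibroblast feeders with LIF and the MEK inhibitor PD0325901, and were then kept in serum and LIF. The medium at harvest and the number of independent lines behind the 2 replicates of each group are not given in the sources used here.

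Embryonic stem cells keep the pluripotent state of the inner cell mass through a network around Pou5f1 (Oct4), Sox2 and Nanog. Several signals act on that network in mouse cells, namely LIF through STAT3, BMP through SMAD proteins and Id genes, and FGF through ERK, which pushes cells toward differentiation. The cells also express low levels of genes of germ cells and of cleavage-stage embryos, many of which are silenced by promoter methylation in somatic cells.

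The 4 libraries held between 12176509 and 18572901 reads, recovered from the TPM values and exon lengths, and 3 reads on a gene of median length corresponded to 0.116 to 0.159 TPM. The labels could be checked against genes silent on the maternal chromosomes. Snrpn was measured at 108 and 88.4 TPM in ESCs 1 and 2 and at 6.80 and 9.46 TPM in pESCs 1 and 2, and Mest at 39.0 and 37.8 TPM against 2.13 and 3.92 TPM. Both genes were low in both pESC libraries and high in both ESC libraries. Of the stem cell markers, Dppa5a was measured at 21670 and 22430 TPM in ESCs and 26040 and 28150 TPM in pESCs, Nanog at 674 and 470 TPM against 412 and 404 TPM, and Sox2 at 32.7 and 44.6 TPM against 35.9 and 62.4 TPM. Defining markers of the feeder cells were at or near 0. The 15 fibroblast genes summed to 0.833 to 0.986 TPM in every stem cell library, none passed the filter on low values, and Col1a2 was listed at 0 in 3 of the 4 libraries. The summed level of 8 primitive endoderm markers was 2.20 and 2.19 TPM in ESCs and 0.895 and 1.69 TPM in pESCs. The summed level of 8 trophectoderm markers was 14.3 and 12.4 TPM in ESCs and 7.38 and 8.59 TPM in pESCs, with the defining gene Cdx2 under 0.1 TPM throughout. Summed levels of 10 mesoderm markers (4.93 to 6.76 TPM), 9 neural markers (0.666 to 1.16 TPM) and 8 blood markers (0.0678 to 4.44 TPM) overlapped between the groups. Xist lay between 0.127 and 0.291 TPM in all 4 libraries.

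The pESC 1 library stood apart. Across the tested genes the squared correlation of log2(TPM + 1) was 0.974 between the ESC libraries, 0.938 between the pESC libraries, 0.900 and 0.913 between pESC 1 and ESCs 1 and 2, and 0.931 and 0.948 between pESC 2 and ESCs 1 and 2. A difference of at least 2-fold separated the 2 pESC libraries at 812 genes and the 2 ESC libraries at 343 genes. The median gene was 0.42 lower than the ESC mean in pESC 1 and 0.13 lower in pESC 2 on the log2(TPM + 1) scale, whereas the ESC libraries differed by 0.03. The shift depended on the transcript. In pESC 1 the median difference was -0.22 for the shortest protein-coding genes and -0.59 for those of 2420 to 3150 nt. In pESC 2 it went from 0.01 for the genes poorest in GC to -0.32 for the richest. Protein-coding genes called lower by the test of the next paragraph had a median GC content of 53.8%, those called higher 44.5% and all tested ones 48.8%. The part of these trends in the differences reported here was not tested gene by gene. Lists are therefore read against the all-gene median, and a fit in which every library was centred within bins of GC content and length is given beside the lists and counts.

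**Figure D1:**
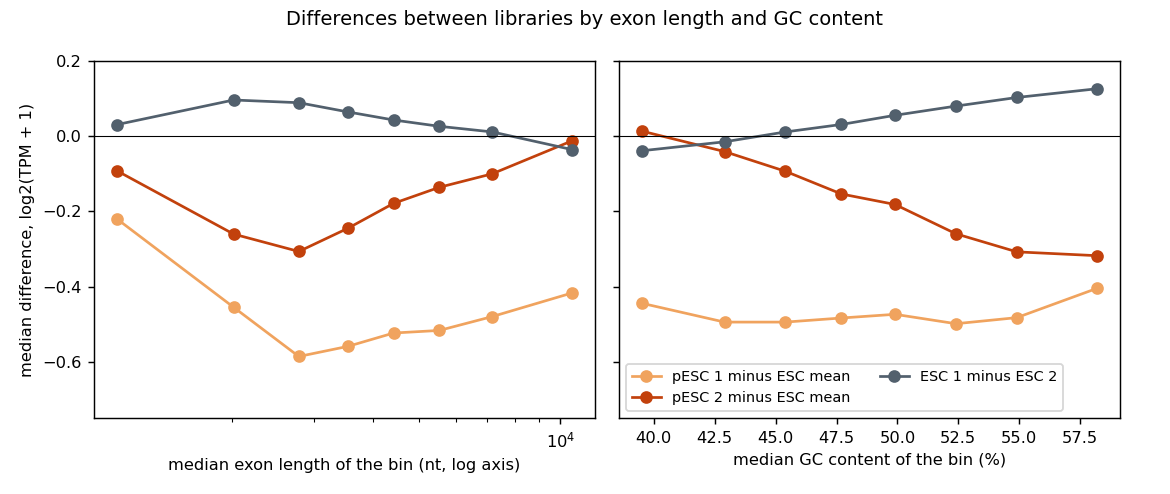
Median difference in log2(TPM + 1) of tested protein-coding genes in 8 bins of exon length (left, log axis) and 8 bins of GC content (right), for each pESC library against the ESC mean and for ESC 1 against ESC 2. pESC 1 lies between -0.22 and -0.59 over all length bins, pESC 2 falls from 0.01 to -0.32 with GC content, and the ESC libraries stay within 0.13 of each other.

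Calls required a limma p below 0.05 after Benjamini-Hochberg adjustment together with a 2-fold or larger difference on the log2(TPM + 1) scale. This scale understates the change of genes with low values. Of the 13109 genes, 515 (3.93%) were called, 116 higher (0.885%) and 399 lower (3.04%) in pESCs. Annotated as protein coding were 46 of the 116 and 271 of the 399, against 9455 of all 13109 genes. Exon length was under 200 nt in 70 of the 515. The median over all genes was -0.26. A second fit, called median centring here, centred each library on its median over the 9024 genes with at least 1 TPM in all 10 libraries. The split then turned to 183 higher (1.4%) and 33 lower (0.252%), around a median over all tested genes of 0.07 and not 0. With centring within GC and length bins the split was 135 higher (1.04%) and 73 lower (0.561%). The genes called in the same direction both as deposited and after median centring numbered 92 higher and 33 lower, and 64 and 26 of them were also called after GC and length centring. Values of the 2 pESC libraries lay above both ESC libraries at 1548 genes (11.8%) and below both at 6348 genes (48.4%). Leaving out pESC 1 lowered the calls to 6, and leaving out ESC 1 to 9. With 2 libraries a group the smallest p of an exact permutation test is 0.333, and the calls therefore rest on the variance that limma shares across genes and groups.

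The 30 genes described next were the 15 largest changes in each direction among protein-coding autosomal genes outside the imprinted lists that passed in both scalings without overlap of libraries. There were 27 such genes higher and 11 lower in pESCs, and the lower set was filled with 4 genes that reached only an unadjusted p under 0.05 after centring (Utf1, Gm28305, Gm49369 and Gjb5), of which Gm28305 was not called as deposited either (limma adjusted p = 0.0662). After GC and length centring, 14 of the 15 higher genes were still called, the exception being Zfp992, and 8 of the 15 lower genes. Ifrd2, Phb2, Ascl4, Psmd13, Gm28305, Gm49369 and Gjb5 were not. Those for which a fold is given kept their direction in each of the alternatives tried.

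**Figure D2:**
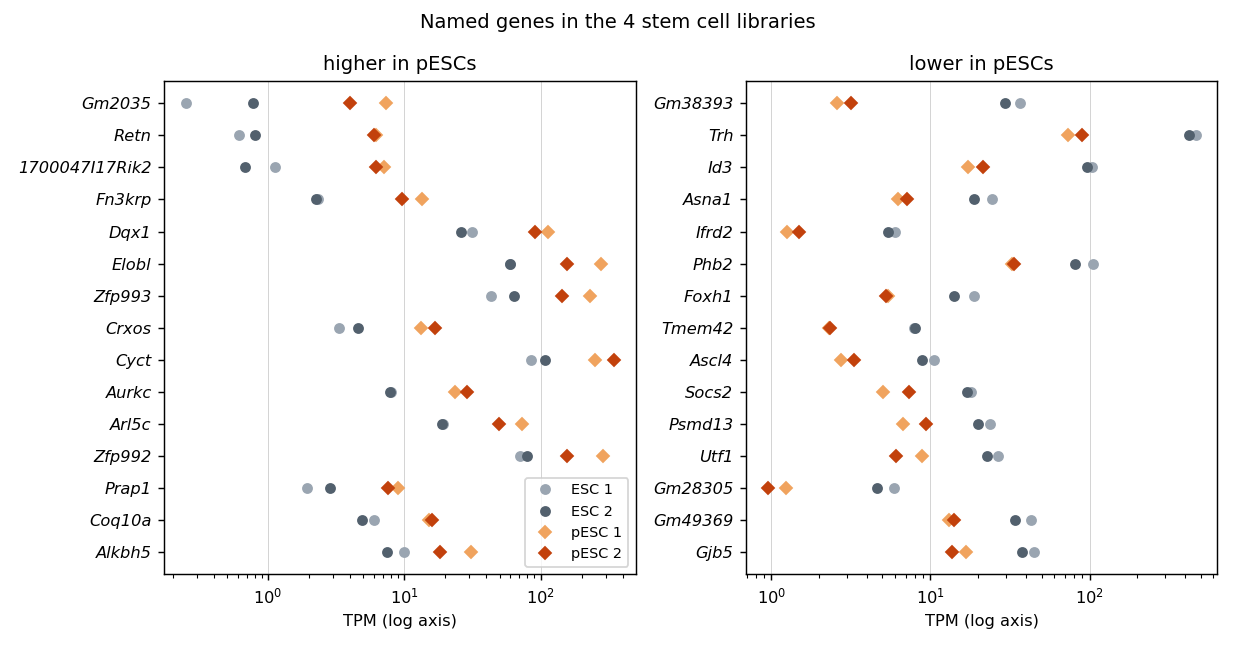
TPM (log axis) of the 15 higher and 15 lower named genes in each of the 4 stem cell libraries, 1 point per library. In every row both pESC libraries (diamonds) lie on the same side of both ESC libraries (circles), from Retn at 0.619 and 0.799 TPM against 6.198 and 5.99 TPM to Trh at 467 and 419 TPM against 73.3 and 89.3 TPM.

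Some genes of germ cells were among those that rose, and others were not. Dazl (13.2 and 13.6 TPM in ESCs, 12.1 and 18.7 TPM in pESCs) overlapped between the groups. Ddx4 also overlapped, at 2.63 and 3.35 TPM against 1.51 and 3.10 TPM. Sycp1 and Tex101 stayed under 1 TPM in all 4 libraries. Mael was above both ESC libraries in pESCs, at 0.940 and 0.971 TPM against 1.71 and 1.33 TPM, but was not called. Aurkc, a kinase of the Aurora family that acts in meiosis (GRCm38 chr7:6995300-7003091, plus strand), was measured at 7.98 and 7.84 TPM in ESCs 1 and 2 and at 23.5 and 28.7 TPM in pESCs 1 and 2. Both pESC libraries were above both ESC libraries. The log2 difference was 1.60 ± 0.19 (SE, adjusted p = 0.0138), or 1.74 without pESC 1 and 1.90 after GC and length centring. Of the 100-base stretches of Aurkc, 36.8% also occur in other annotated genes, so its reads could be split with them. Its mitotic relatives, named here after their values were seen, were not called. Aurka was measured at 133 and 122 TPM in ESCs and 67.8 and 79.3 TPM in pESCs, and Aurkb at 40.1 and 38.1 TPM against 19.08 and 27.8 TPM.

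Cyct, the testis form of cytochrome c (chr2:76353942-76360450, minus strand), was measured at 85.7 and 108 TPM in ESCs and 251 and 346 TPM in pESCs, a difference of 1.60 ± 0.20 (SE, limma adjusted p = 0.0154) without overlap. The somatic gene Cycs was measured at 363 and 419 TPM in ESCs and 314 and 466 TPM in pESCs, so its groups overlapped. Sycp3, a protein of the axis of meiotic chromosomes (chr10:88459569-88473236, plus strand), was measured at 12.4 and 13.8 TPM in ESCs and 24.7 and 35.8 TPM in pESCs. It rose by 1.13 ± 0.24 (adjusted p = 0.0313), a call that missed the threshold after GC and length centring (1.04, limma adjusted p = 0.0508), and 34.0% of its 100-base stretches lie in the overlapping gene Chpt1 on the opposite strand, and reads of the pair cannot be told apart because the counting is not stated to use strand. The promoters of Cyct and Sycp3 are shown because both genes rose and because each holds the hexamer TCCCGC on the strand opposite to the gene, in capitals as its reverse complement. The windows run from 250 bases before to 50 bases after the start in RefSeq (GRCm38.p6), at chr2:76360404-76360703 on the minus strand and chr10:88459337-88459636 on the plus strand.
Cyct: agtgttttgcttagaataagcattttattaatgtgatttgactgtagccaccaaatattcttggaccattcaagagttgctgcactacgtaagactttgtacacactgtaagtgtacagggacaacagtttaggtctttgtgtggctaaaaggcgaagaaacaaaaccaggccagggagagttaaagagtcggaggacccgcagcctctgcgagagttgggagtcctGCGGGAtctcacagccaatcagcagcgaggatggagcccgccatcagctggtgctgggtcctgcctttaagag
Sycp3: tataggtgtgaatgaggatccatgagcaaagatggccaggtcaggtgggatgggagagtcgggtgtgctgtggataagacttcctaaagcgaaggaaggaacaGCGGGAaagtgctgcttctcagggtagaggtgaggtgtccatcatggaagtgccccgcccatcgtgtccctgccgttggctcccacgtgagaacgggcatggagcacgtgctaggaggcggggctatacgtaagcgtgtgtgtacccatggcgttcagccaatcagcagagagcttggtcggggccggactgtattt

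The hexamer was chosen after the sequences were looked at, was searched on both strands, and occurs in 20% of the 32851 RefSeq promoter windows. The windows of Aurkc, Elobl and Crxos held no match. A window listed for Zfp993 (chr4:146512599-146512898) held none either, but it lies outside the annotated gene (chr4:146610961-146658160) and is not read as its promoter. The Sycp3 window holds 15 CpG dinucleotides and the Cyct window 8, against a median of 7.0 over all windows. As a whole, the 15 tested genes of a list of germline genes silenced by methylation had 1 called member (Sycp3, 6.67% against 3.93% of all genes), and their median lay 0.25 above the all-gene median, at 0.21 in pESC 1 and 0.31 in pESC 2. After GC and length centring the list lay 0.19 above with none called. The list was not uniform. Hormad1, another meiotic axis protein, was measured at 49.3 and 51.3 TPM in ESCs and 68.5 and 97.5 TPM in pESCs, whereas Tex19.1 was measured at 65.9 and 52.8 TPM against 28.6 and 31.6 TPM, and neither was called. Rpl10l and Tuba3a were high in pESC 1 in the main, with Rpl10l at 31.2 and 31.7 TPM in ESCs, 166 TPM in pESC 1 and 42.5 TPM in pESC 2.

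Dppa3 (Stella), a maternal factor that protects the early embryo's DNA methylation (chr6:122626410-122630272, plus strand), was measured at 353 and 378 TPM in ESCs and 709 and 873 TPM in pESCs. It rose by 1.10 ± 0.18 (SE, limma adjusted p = 0.0226) and was the member of the naive pluripotency list that was called higher. The other called member of the 28, Manba, encodes a lysosomal mannosidase and fell from 13.6 and 11.1 TPM to 4.67 and 4.50 TPM. The list's median lay 0.09 above the all-gene median in both fits. After GC and length centring 2 members, Dppa3 among them, were called higher (1.04% of all genes), and Manba was not called. The homeobox genes Crxos (3.34 and 4.58 TPM in ESCs, 13.2 and 16.7 TPM in pESCs) and Obox6 (58.9 and 54.6 TPM in ESCs, 95.0 and 145 TPM in pESCs) lie close to each other on chromosome 7, at chr7:15882617-15904020 on the plus strand and chr7:15833241-15839678 on the minus strand. Crxos rose by 1.69 ± 0.20 (adjusted p = 0.0154), and Obox6, named after its values were seen, was also called. Elobl, a relative of the transcription elongation factor elongin B, was measured at 59.7 and 59.9 TPM in ESCs and 278 and 156 TPM in pESCs, a rise of 1.78 ± 0.33 (adjusted p = 0.0252), while elongin B itself (Elob) was measured at 1809 and 1951 TPM in ESCs and 2399 and 2038 TPM in pESCs.

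Genes switched on in the cleavage-stage embryo were not called as a list. None of 15 tested two-cell-like genes was called, and their median lay 0.42 above the all-gene median, at 0.73 in pESC 1 and 0.20 in pESC 2, and 0.33 above after GC and length centring. Zscan4c was measured at 0.477 and 1.63 TPM in ESCs and 1.45 and 0.912 TPM in pESCs, and Zscan4d at 0.191 and 4.07 TPM against 1.75 and 1.73 TPM, so both overlapped. Gm5662 was measured at 6.84 and 6.31 TPM in ESCs, 22.3 TPM in pESC 1 and 9.09 TPM in pESC 2. Gm2035, which is no list member but shares 45.5% of its 100-base stretches with genes that include Gm2016, Gm2022 and Gm5662, was measured at 0.250 and 0.774 TPM in ESCs (1 and 4 reads) and 7.32 and 3.98 TPM in pESCs (28 and 15 reads). The read counts in ESCs were too few for a fold.

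The other genes that rose belong to no single pathway among the lists. Retn, the gene of the hormone resistin (chr8:3655770-3660110, plus strand), was measured at 0.619 and 0.799 TPM in ESCs and 6.198 and 5.99 TPM in pESCs, a difference of 2.05 ± 0.28 (SE, limma adjusted p = 0.0184). Fn3krp, a kinase that acts on sugar adducts of proteins (chr11:121421401-121431288, plus strand), was measured at 2.33 and 2.24 TPM in ESCs and 13.5 and 9.71 TPM in pESCs, a difference of 1.92 ± 0.22 (adjusted p = 0.0138). The ATPase gene Dqx1 (chr6:83057844-83067318, plus strand) was measured at 31.3 and 25.9 TPM in ESCs and 114 and 90.6 TPM in pESCs, a difference of 1.80 ± 0.24 (adjusted p = 0.0154). These 3 genes shared no 100-base stretch with another gene, and both pESC libraries lay above both ESC libraries. Arl5c, a small GTPase of the ARF family, was measured at 19.3 and 18.99 TPM in ESCs and 72.7 and 49.5 TPM in pESCs. Coq10a, which binds coenzyme Q, was measured at 6.03 and 4.87 TPM against 15.1 and 16.1 TPM, Alkbh5, an RNA demethylase, at 10.04 and 7.53 TPM against 30.9 and 18.3 TPM, and Prap1, a small secreted protein, at 1.93 and 2.85 TPM against 8.99 and 7.63 TPM. The rise of 1700047I17Rik2, from 1.12 and 0.675 TPM to 7.13 and 6.24 TPM, is uncertain because all of its 100-base stretches (100%) occur in other genes, Fam177a among them.

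A cluster of zinc finger genes on chromosome 4 moved with one library more than with the group. The rule had named Zfp993 (43.3 and 63.7 TPM in ESCs, 232 and 144 TPM in pESCs) and Zfp992 (70.4 and 79.4 TPM in ESCs, 287 and 157 TPM in pESCs), and their neighbours were then looked at after these values were seen. Proteins of this class bind DNA, and many silence transposons. Of the 18 tested Zfp genes between chr4:145510759 and chr4:147848366, 4 were called higher (Zfp985, Zfp991, Zfp992 and Zfp993), against 0.885% of all genes. Zfp992 and Zfp993 were among these by the way the cluster was chosen. In both pESC libraries 15 of the 18 lay above both ESC libraries, against 11.8% of all genes. All 18 were higher in pESC 1 than in both ESC libraries, a count for which no all-gene share is given. The ratio to the ESC mean ran from 1.5 to 6.34 in pESC 1 and from 0.939 to 2.69 in pESC 2. Zfp988, for example, was measured at 148 and 176 TPM in ESCs, 551 TPM in pESC 1 and 196 TPM in pESC 2. The median difference over the cluster was 1.08 with both pESC libraries and 0.37 without pESC 1. Over the 257 other tested Zfp genes the median was -0.25, and 0 were called higher and 2 lower (limma). These cluster genes share sequence, up to 71.9% of the 100-base stretches of Zfp993, so reads could be split among them.

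Among the genes that fell, several belong to the TGF-β, Nodal and BMP pathway, in which ligands activate receptor kinases that phosphorylate SMAD proteins. The inhibitor of differentiation Id3, a direct BMP target that blocks basic helix-loop-helix factors (chr4:136143497-136145755, plus strand), was measured at 104 and 97.0 TPM in ESCs 1 and 2 and at 17.2 and 21.4 TPM in pESCs 1 and 2. It was lower in both pESC libraries, with a log2 difference of -2.33 ± 0.23 (SE, limma adjusted p = 0.00654), -2.18 without pESC 1 and -1.96 after GC and length centring. Foxh1, the DNA-binding partner of SMAD proteins in Nodal signaling (chr15:76668225-76669948, minus strand), was measured at 18.7 and 14.1 TPM in ESCs and 5.42 and 5.24 TPM in pESCs, a difference of -1.45 ± 0.21 (adjusted p = 0.0202). The ligand Bmp4 was measured at 2.13 and 1.42 TPM in ESCs and 0.152 and 0.616 TPM in pESCs, from 44 and 38 reads against 3 and 12 reads, with a difference of -1.01 ± 0.24 (adjusted p = 0.0378) that was -0.46 after GC and length centring.

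Most of that pathway was not called. These 3 genes were the called members of 16 tested, all lower (18.8% against 3.04% of all genes), and the median of the 16 lay 0.10 below the all-gene median. After GC and length centring that offset was -0.0018, Id3 and Foxh1 were still called lower, Bmp4 was not, and 1 other member, the SMAD corepressor Skil, was called higher. The other Id genes, named for comparison after their values were seen, were not called: Id1 was measured at 4.02 and 4.42 TPM in ESCs and 3.14 and 2.69 TPM in pESCs, Id2 at 15.9 and 12.5 TPM against 14.98 and 14.6 TPM, and Id4 at 3.61 and 4.37 TPM against 4.29 and 4.95 TPM. The co-receptor Tdgf1 (576 and 597 TPM in ESCs, 426 and 600 TPM in pESCs) and the Nodal antagonist Lefty2 (41.2 and 44.2 TPM in ESCs, 30.5 and 41.8 TPM in pESCs) overlapped between the groups. The ligand Gdf3 was measured at 272 and 261 TPM in ESCs and 141 and 159 TPM in pESCs and did not reach 2-fold.

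FGF and ERK response genes did not all lie on the same side. The ERK phosphatase Dusp6 was measured at 3.05 and 2.34 TPM in ESCs and 0.291 and 0.553 TPM in pESCs, a difference of -1.38 ± 0.20 (SE, limma adjusted p = 0.0206), and the stress-induced phosphatase Dusp1 at 24.4 and 18.5 TPM against 6.54 and 10.01 TPM, a difference of -1.29 ± 0.23 (adjusted p = 0.0252). They were the called members of 13 tested, both lower (15.4% called against 3.04% of all genes called lower), and no member was called after GC and length centring. In contrast the ERK pathway inhibitor Spry2 was measured at 264 and 197 TPM in ESCs and 357 and 389 TPM in pESCs, above both ESC libraries but not called, and Etv5 at 44.1 and 50.4 TPM against 26.0 and 37.9 TPM. Fgf4 overlapped between the groups. In cytokine signaling, Socs2, a feedback inhibitor of STAT pathways (chr10:95385362-95417180, minus strand), fell from 18.1 and 17.0 TPM to 5.07 and 7.31 TPM (-1.38 ± 0.21, adjusted p = 0.0206), while Socs3 was measured at 2.22 and 2.53 TPM in ESCs and 2.05 and 2.20 TPM in pESCs. Hes6, of the Notch and Hedgehog list, was measured at 8.17 and 5.07 TPM in ESCs and 1.45 and 2.43 TPM in pESCs and was the called member of 7, a call not kept after GC and length centring. No member of the lists of Wnt targets (11 tested) and retinoic acid genes (7 tested) was called by limma as deposited. After GC and length centring 2 retinoic acid genes were called higher, against 1.04% of all genes, and no Wnt target was called. The retinoic acid list lay 0.25 above the all-gene median, and 0.38 above after that centring. Its offset was 0.43 in pESC 1 and -0.14 in pESC 2.

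The largest fall outside chromosomal regions with imprinted genes was that of Trh, the gene of thyrotropin-releasing hormone (chr6:92242061-92244650, minus strand). It was measured at 467 and 419 TPM in ESCs and 73.3 and 89.3 TPM in pESCs, with a difference of -2.44 ± 0.23 (SE, limma adjusted p = 0.00616) and -2.30 without pESC 1. Gm38393 fell more, from 36.5 and 29.4 TPM to 2.60 and 3.19 TPM, but it overlaps the imprinted genes Snrpn and Snurf on the same strand. Utf1, a chromatin factor of pluripotent cells, was measured at 26.7 and 22.6 TPM in ESCs and 8.81 and 6.11 TPM in pESCs. Pou5f1 was measured at 23.5 and 19.01 TPM in ESCs and 7.80 and 7.49 TPM in pESCs, a difference of -1.36 ± 0.26 (adjusted p = 0.0258), which was -0.85 after GC and length centring and missed the threshold after median centring (adjusted p = 0.0638). Dnmt3l and Dnmt3b, partners in setting new DNA methylation, were measured at 7.59 and 8.39 TPM and at 7.61 and 7.12 TPM in ESCs, and at 3.73 and 3.90 TPM and 3.99 and 4.81 TPM in pESCs. Neither was called, and of 16 tested genes of DNA methylation only Zfp57, a zinc finger protein that guards imprints, was called (29.3 and 19.6 TPM in ESCs, 9.29 and 11.4 TPM in pESCs), and not after GC and length centring.

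The remaining named genes on the lower side were of mixed function. Asna1, which delivers tail-anchored proteins to membranes, was measured at 24.3 and 18.8 TPM in ESCs and 6.29 and 7.11 TPM in pESCs, Phb2, a scaffold protein of mitochondria, at 104 and 81.3 TPM against 32.6 and 33.5 TPM, and Psmd13, a proteasome subunit, at 23.8 and 19.8 TPM against 6.74 and 9.36 TPM. The connexin gene Gjb5 was measured at 45.03 and 37.6 TPM in ESCs and 16.8 and 13.6 TPM in pESCs. Ifrd2, Tmem42 and Ascl4 lay between 5.39 and 10.5 TPM in ESCs and between 1.25 and 3.30 TPM in pESCs. Gm49369 and Gm28305 share 81.1% and 63.9% of their 100-base stretches with genes they overlap, and Gm28305 was covered by 20 reads in each ESC library and 4 and 3 in pESCs, too few for a fold.

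Of 41 gene lists with at least 15 tested genes, the imprinted and microRNA gene lists left out, 25 had a median below the all-gene median in both pESC libraries and 11 above it in both. At least 1 member was called lower in 26 lists and higher in 3 lists, and 14 lists held no called gene by limma. With 3.93% of all genes called in either direction, 1 called member in such a list is near the background. After GC and length centring, 2 of the 41 lists held a member called lower (0.561% of all genes) and 8 a member called higher (1.04% of all genes).

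**Figure D3:**
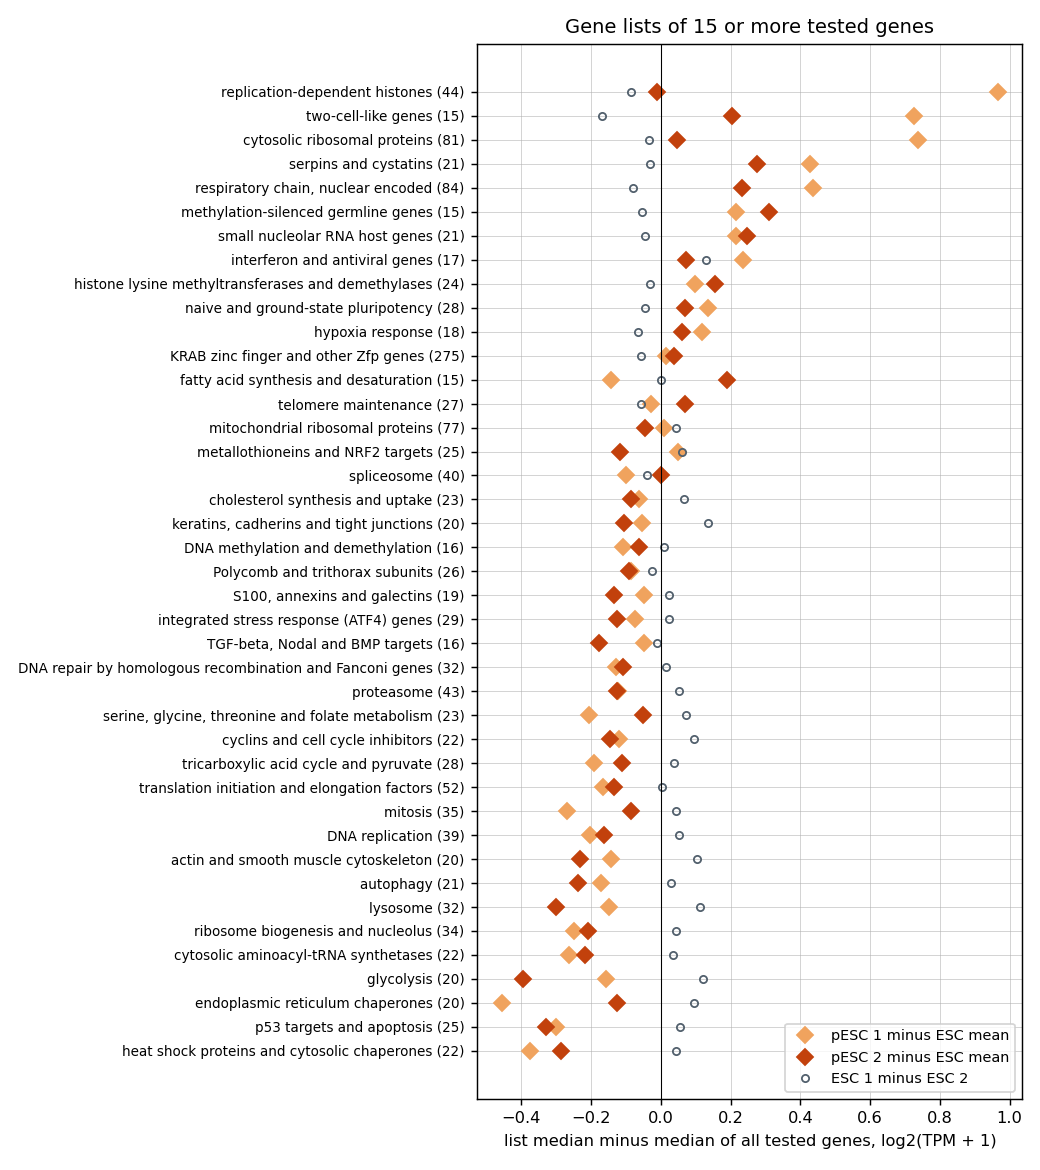
Median log2(TPM + 1) difference of each gene list minus the median of all tested genes, for pESC 1 and pESC 2 against the ESC mean (diamonds) and for ESC 1 against ESC 2 (circles), with the number of tested genes in parentheses. Heat shock proteins, endoplasmic reticulum chaperones and p53 targets lie lowest, below 0 in both pESC libraries, and the histone and ribosomal protein lists reach 0.97 and 0.74 in pESC 1 while pESC 2 stays at -0.01 and 0.05.

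In energy metabolism, glycolysis and the respiratory chain lay on opposite sides of the all-gene median. Of 20 tested glycolysis genes, 3 were called lower (15% against 3.04%). Eno1 was measured at 320 and 253 TPM in ESCs and 117 and 132 TPM in pESCs, Gapdh at 50.4 and 44.9 TPM against 21.9 and 24.4 TPM, and Pdk1, a kinase that diverts pyruvate from mitochondria, at 4.56 and 4.89 TPM against 1.14 and 2.46 TPM. Eno1 and Gapdh share 20.4% and 20.9% of their 100-base stretches with other loci. The list's median was 0.23 below that of all genes, and 0.08 below it after GC and length centring, where none of the 3 genes was called. The abundant lactate dehydrogenase Ldha was measured at 499.5 and 469 TPM in ESCs and 354 and 425 TPM in pESCs, and Ldhb at 1102 and 1131 TPM against 922 and 1093 TPM. The 28 genes of the tricarboxylic acid cycle, none of them called, lay 0.17 below, and 0.08 below after GC and length centring.

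The 84 nuclear genes of the respiratory chain lay 0.34 above the all-gene median, at 0.44 in pESC 1 and 0.23 in pESC 2, and 0.25 above after GC and length centring. In both pESC libraries 29 of the 84 lay above both ESC libraries and 24 below both, against 11.8% and 48.4% of all genes. The most abundant member, Uqcrb, overlapped at 3236 and 3929 TPM in ESCs and 3730 and 5253 TPM in pESCs. Cox6b1 (3058 and 3405 TPM in ESCs, 3964 and 3472 TPM in pESCs), Uqcr10 (2641 and 2638 TPM against 3817 and 3502 TPM) and Cox7c (1661 and 1912 TPM against 2494 and 2867 TPM) did not overlap but were not called. Ndufv1, the called member, was lower (65.02 and 53.5 TPM in ESCs, 23.5 and 28.97 TPM in pESCs) but was not called after GC and length centring. Of the 13 mitochondrially encoded genes, mt-Nd3, a complex I subunit, was called higher, at 265 and 354 TPM in ESCs and 645 and 666 TPM in pESCs. Its 100-base stretches recur at 97.6% in an annotated nuclear copy. The list lay 0.20 above the all-gene median, and 0.07 below it after GC and length centring with none called. The abundant mt-Nd1 was measured at 35840 and 34920 TPM in ESCs and 24440 and 32650 TPM in pESCs, so the values of these genes did not all lie on the same side.

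Lists of protein quality control lay low. The lysosome list had 5 members called lower of 32 (15.6% against 3.04% of all genes), the enzymes Manba, Ctsa (46.8 and 38.4 TPM in ESCs, 17.3 and 22.1 TPM in pESCs) and Ctsb (70.3 and 61.3 TPM in ESCs, 27.7 and 37.4 TPM in pESCs), the membrane protein Lamp1 and the proton pump subunit Atp6ap1. Its median was 0.17 below the all-gene median. It was 0.13 below after GC and length centring, and none of the 5 was then called. Ctsl, another cathepsin, overlapped at 105 and 126 TPM against 111 and 153 TPM. Of 43 proteasome genes, 3 were called lower (Psmd13, Adrm1 and Psmc5, 6.98% against 3.04%), with the median 0.13 below, or 0.07 below with none called after GC and length centring. Psmb2, Psma6 and Psmb1, the most abundant of them, overlapped between the groups, while Psma5 lay below both ESC libraries. The 22 heat shock proteins and cytosolic chaperones lay 0.32 below, with offsets of -0.38 in pESC 1 and -0.29 in pESC 2, with 1 called, the chaperonin subunit Cct7 (163 and 141 TPM in ESCs, 64.4 and 76.5 TPM in pESCs). Hspa8, which folds new proteins, was measured at 1247 and 1149 TPM in ESCs and 645 and 747 TPM in pESCs. The most abundant member, Hsp90aa1, overlapped at 2782 and 2955 TPM against 3072 and 2719 TPM. Hspe1 lay above both ESC libraries, at 1142 and 1203 TPM against 1310 and 1324 TPM. Of the 22, 18 lay below both ESC libraries and 3 above both, against 48.4% and 11.8% of all genes. The 20 chaperones of the endoplasmic reticulum also lay 0.32 below but unevenly, with offsets of -0.45 in pESC 1 and -0.13 in pESC 2, and Pdia4 was the called member. Of their abundant members, Canx overlapped between the groups and Pdia3 lay below both ESC libraries. These 2 lists lay 0.21 and 0.26 below after GC and length centring, neither Cct7 nor Pdia4 was called, and Bag3, a partner of heat shock proteins, was called higher.

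Lists of protein synthesis and of the cell cycle showed which library a difference rested on. The 81 cytosolic ribosomal protein genes lay 0.39 above the all-gene median with none called, but this was 0.74 in pESC 1 and 0.05 in pESC 2. The offset was again 0.39 after GC and length centring, and 0.11 when pESC 1 was also left out. The 44 replication-dependent histone genes, whose median exon length was 496 nt, showed the same pattern, at 0.97 and -0.01. In contrast, the 34 genes of ribosome biogenesis lay below in both libraries, at -0.25 and -0.21, with 1 called, the RNA methyltransferase Nop2 (23.4 and 20.7 TPM in ESCs, 7.80 and 9.28 TPM in pESCs), and the 22 cytosolic aminoacyl-tRNA synthetases at -0.26 and -0.22 with none called. The 25 p53 targets and apoptosis genes lay at -0.30 and -0.33, with Pmaip1 (19.5 and 15.1 TPM in ESCs, 5.63 and 7.19 TPM in pESCs) and Bid (52.3 and 48.1 TPM in ESCs, 18.8 and 29.2 TPM in pESCs), both of them promoters of cell death, called lower. Trp53 itself was measured at 88.1 and 61.7 TPM in ESCs and 44.4 and 32.4 TPM in pESCs and was not called. The lists of ribosome biogenesis, synthetases and p53 targets lay 0.14, 0.18 and 0.24 below after GC and length centring, and none of their genes was called. Of 39 DNA replication genes 1 was called, Pold2, and of 35 mitosis genes 1, Cdc20, both lower and neither called after that centring.

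In serine, glycine and folate metabolism, which feeds methylation and nucleotide synthesis, 3 of 23 genes were called lower (13% against 3.04% of all genes). None of the list was called after GC and length centring, a fit without Gcat because its symbol matched no single annotated gene, and the list's offset went from -0.12 to -0.05. Mat2a, which makes the methyl donor S-adenosylmethionine, was measured at 102 and 104 TPM in ESCs and 33.6 and 54.3 TPM in pESCs, Shmt2 at 29.9 and 23.2 TPM against 11.5 and 13.2 TPM, and Gcat at 107 and 93.1 TPM against 43.96 and 50.7 TPM. Tdh, the enzyme of threonine breakdown on which mouse ESCs rely, was measured at 396 and 369 TPM in ESCs and 206 and 210 TPM in pESCs and did not reach 2-fold. Interferon-induced membrane protein genes were high in pESC 1 in the main. Ifitm2 was measured at 2434 and 2125 TPM in ESCs, 6757 TPM in pESC 1 and 2587 TPM in pESC 2, and Ifitm3 at 1928 and 1917 TPM, 5655 TPM and 2143 TPM. Among 21 tested serpins and cystatins, protease inhibitors, none was called, and the median was 0.32 above the all-gene median. After GC and length centring the list lay 0.36 above, with 1 member called higher (1.04% of all genes). Cstb was measured at 1407 and 1334 TPM in ESCs and 2008 and 1889 TPM in pESCs, whereas Cst3 was lower, at 266.5 and 241 TPM against 221 and 228 TPM. Cldn4, a tight junction protein, fell from 5.38 and 4.49 TPM to 1.003 and 1.65 TPM, a call not kept after GC and length centring.

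The microRNA cluster miR-290 to miR-295 on chromosome 7 is the main microRNA locus of mouse embryonic stem cells, and its members are shown because several share a seed (bases 2 to 8 of the mature microRNA, in capitals), the part that pairs with targets. Sequences of the 3' arms are from RefSeq (GRCm38.p6, plus strand of chromosome 7), and miR-292 is left out because no sequence was matched to it.
miR-290a-3p: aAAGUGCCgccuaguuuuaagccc
miR-291a-3p: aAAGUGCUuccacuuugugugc
miR-291b-3p: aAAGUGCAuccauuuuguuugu
miR-293-3p: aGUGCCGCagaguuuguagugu
miR-294-3p: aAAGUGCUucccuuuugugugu
miR-295-3p: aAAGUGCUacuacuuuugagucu

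Among those shown, the seed AAGUGCU is shared by miR-291a-3p, miR-294-3p and miR-295-3p, and miR-291b-3p and miR-290a-3p differ from it in the last base. The deposited values are reads on the hairpin genes, which come from the primary transcript and not from the mature forms. Mir295 (chr7:3220773-3220841) was measured at 481 and 540.1 TPM in ESCs and 379 and 584 TPM in pESCs, so the groups overlapped. Mir294 was measured at 305 and 280 TPM against 183 and 264 TPM and Mir293 at 160 and 124 TPM against 76.8 and 102 TPM, neither of them called (adjusted p = 0.31 and 0.316, limma). Mir290a and its antisense entry Mir290b passed the test on 3 reads in pESC 1, 1 read in pESC 2 and none in ESCs, at the floor of 3 reads, so no fold is given.

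By chromosome, both pESC libraries departed from the ESCs in the same way on chromosome 6. Its 614 tested genes had a median 0.16 below that of all genes, at -0.16 in pESC 1 and -0.14 in pESC 2, while ESC 1 and ESC 2 differed there by less than 0.01. The offset was -0.17 after GC and length centring, and -0.14 when pESC 1 was also left out. The next lowest autosome was chromosome 8 at -0.08, and the highest was chromosome 13 at 0.13, which rested on pESC 1 (0.15) more than on pESC 2 (0.06). On chromosome 6, 39 genes (6.35%) were called lower, against 3.04% of all genes, and 4 higher. The offset was largest from 60 to 90 Mb, at -0.27 over 146 genes with 18 called lower, and was -0.03 over the 58 genes of the first 30 Mb. Genes named above that lie on this chromosome include Trh, Phb2, Mat2a, Gapdh, Nop2, Bid, Cct7 and Pdia4, all lower, and Dqx1 and Dppa3, which were higher. The chromosome was singled out after its values were seen.

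**Figure D4:**
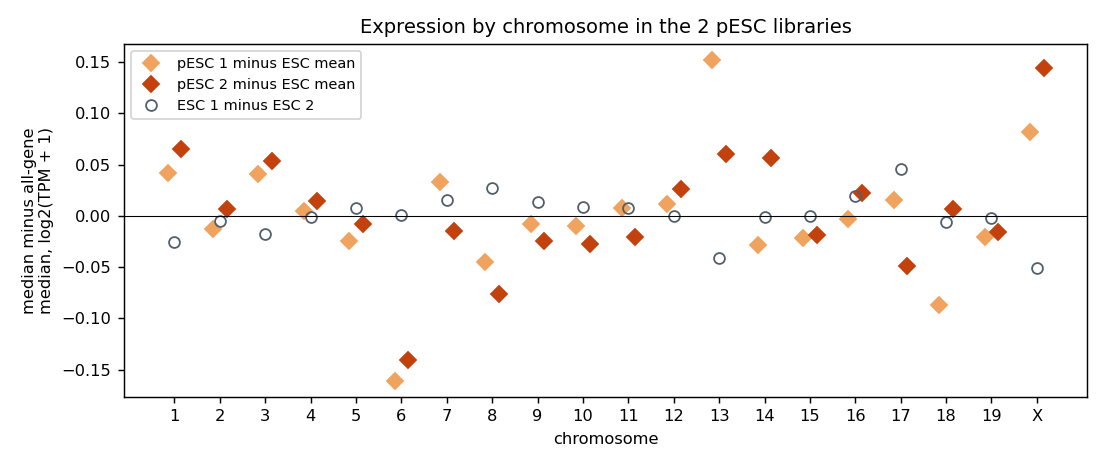
Median log2(TPM + 1) difference of the tested genes of each chromosome minus the median of all tested genes, for pESC 1 and pESC 2 against the ESC mean (diamonds) and ESC 1 against ESC 2 (circles). Chromosome 6 lies at -0.16 and -0.14 in the 2 pESC libraries, below every other chromosome in both.

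Whether these differences were also present after differentiation was asked in primordial germ cell-like cells (PGCLCs), 2 libraries each, induced from both kinds of stem cell through epiblast-like cells and sorted for SSEA1 and CD61. This contrast uses other libraries, but it shares the estimate of each gene's spread with the stem cell contrast and has trends of its own. Genes with a small spread are thus more easily called in both, and the shares of all genes given below do not allow for this. The median gene was 0.32 higher in pESC-PGCLCs than in ESC-PGCLCs, and the median difference rose from -0.02 in the genes poorest in GC to 0.71 in the richest, opposite to the trend of pESC 2. Snrpn and Mest, low in pESCs, ran the other way in PGCLCs. Snrpn was measured at 14.1 and 10.9 TPM in ESC-PGCLCs and 94.8 and 105 TPM in pESC-PGCLCs. Mest was measured at 16.2 and 16.8 TPM against 28.8 and 29.0 TPM. These genes thus did not serve as a check of the PGCLC labels, and the cause was not tested. Of all genes 19.4% were called higher and 4.36% lower in pESC-PGCLCs. Of the 116 genes called higher in pESCs, 8 were called higher in pESC-PGCLCs and 44 (37.9%) lower, and of the 399 called lower, 1 was called lower and 208 (52.1%) higher. After GC and length centring, 64 of 135 genes (47.4%) called higher in pESCs were called lower in pESC-PGCLCs (7.43% of all genes) and 24 of 73 (32.9%) called lower were called higher (8.13% of all genes).

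**Figure D5:**
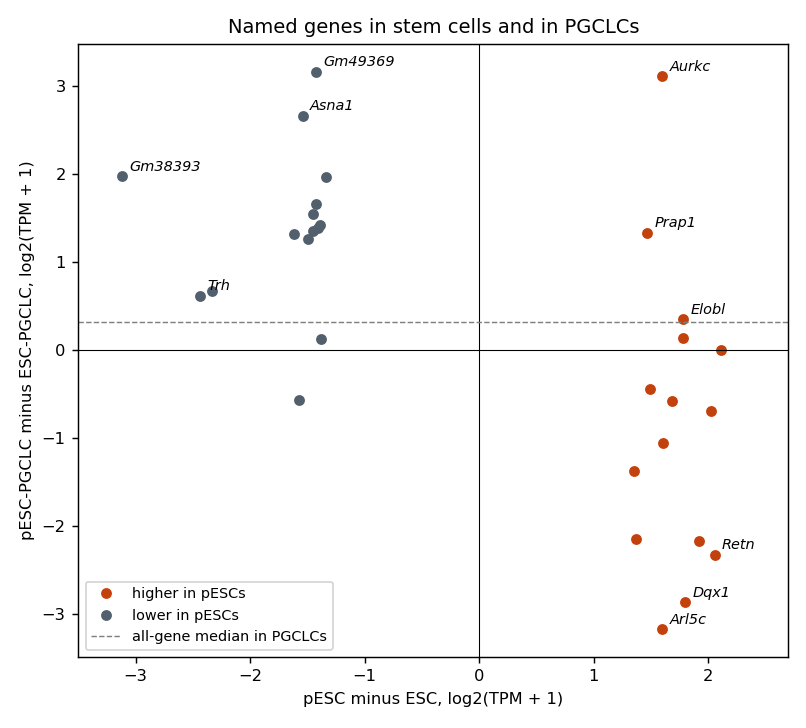
Difference between parthenogenetic and fertilized origin in PGCLCs (vertical axis) against that in stem cells (horizontal axis), both in log2(TPM + 1), for the 30 named genes, with the all-gene median of the PGCLC contrast as a dashed line. Values are without GC and length centring. Aurkc and Prap1 lie high on both axes at 3.11 and 1.33 in PGCLCs, Retn, Dqx1 and Arl5c lie between -2.33 and -3.17 in PGCLCs, and most genes lower in pESCs lie above 0.

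Of the named genes, Aurkc was higher with parthenogenetic origin in both settings, at 1.38 and 1.45 TPM in ESC-PGCLCs and 20.7 and 19.12 TPM in pESC-PGCLCs. Cyct and Sycp3, higher in pESCs, were lower in both pESC-PGCLC libraries. Cyct was measured at 1435 and 1528 TPM in ESC-PGCLCs and 797 and 632 TPM in pESC-PGCLCs, and Sycp3 at 1702 and 1651 TPM against 867 and 685 TPM. Dqx1 was measured at 31.8 and 49.7 TPM in ESC-PGCLCs and 4.60 and 4.57 TPM in pESC-PGCLCs, and Arl5c at 479 and 714 TPM against 66.3 and 61.8 TPM. Id3 was measured at 113 and 133 TPM in ESC-PGCLCs and 218 and 176 TPM in pESC-PGCLCs, both above the ESC-PGCLC values. Its PGCLC difference was 0.67 as deposited and -0.27 after GC and length centring. Trh, abundant in the stem cells, was between 0.533 and 1.69 TPM in all 4 PGCLC libraries. Pou5f1, a marker of pluripotent and germ cells, was measured at 0.374 TPM and listed at 0 in ESC-PGCLCs, against 2.98 and 2.88 TPM in pESC-PGCLCs. This defining marker was thus near absent from the former, where the label would place it. The summed level of 8 blood markers was 487 and 556 TPM in ESC-PGCLCs and 3400 and 2870 TPM in pESC-PGCLCs, and its part in this contrast was not tested. Chromosome 6 had an offset of -0.0022 in this contrast.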

How the data were processed

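RNA-seq libraries of 5 groups (ESC, pESC, ESC-PGCLC, pESC-PGCLC and PGC, 2 replicates each) were used. The study describes Smart-seq2 libraries aligned to mm10 with HISAT2 and counted with Feature-counts, while the labels name total RNA and another kit. The submitters' processing notes also name Bowtie2, RSEM, DESeq2 and R 3.4.2. The values deposited by the authors are TPM per gene symbol. Symbols were matched to the GENCODE annotation of GRCm38 (35859 of 36066). TPM multiplied by exon length and scaled gave whole reads, within 0.05, for about 95% of values, which served for depth, floors of 3 reads (counting error only) and 1 alternative.

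Values were transformed as log2(TPM + 1), and a gene was kept where 2 or more of the 4 stem cell libraries reached 1 TPM. Group means were fitted over all 10 libraries with limma 3.58.1 (R 4.3.3), testing pESC against ESC, the same contrast in PGCLCs and their difference, with Benjamini-Hochberg adjustment over all 13109 genes. The procedure was tested on simulated data. The study calls its replicates biological, and p-values measure the spread between these samples alone. The members and the 65 gene lists were chosen with earlier results of these data known. Named genes were the 15 largest changes in each direction called both as deposited and after median centring, without overlap of libraries, at 5 TPM or more in the higher group, with 200 nt or more of exon, protein coding, off the X chromosome and outside imprinted lists, filled with genes at an unadjusted p under 0.05, then up to 4 called and 4 abundant members of each list, and label checks. Genes named only for comparison, such as Cycs, Elob, Aurka, Socs3, Skil and Bag3, were chosen after their values were seen. Shared sequence is given as the percentage of 100-base stretches of annotated transcripts that another gene also holds. Python 3.11.15 made the tables and figures.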

Additional observations from a re-analysis of the deposited data

Results flagged for a closer look

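The difference between parthenogenetic and fertilized origin was not the same in stem cells and PGCLCs for 28 of the 30 named genes, by limma's test of the difference of the 2 differences (adjusted p under 0.05). The tested quantity contains the stem cell difference by which these genes were chosen, so a high count was favoured in advance. The share of all genes that pass the same test is not given here, and the count is not read as a result about these genes. The size given here is the PGCLC difference minus the stem cell difference in log2(TPM + 1), without GC and length centring. Among genes higher in pESCs it was -2.11 for Gm2035, -4.38 for Retn, -2.71 for 1700047I17Rik2, -4.1 for Fn3krp, -4.66 for Dqx1, -1.43 for Elobl, -1.64 for Zfp993 and -2.26 for Crxos. It was -2.67 for Cyct, 1.51 for Aurkc, -4.77 for Arl5c, -1.93 for Zfp992, -3.51 for Coq10a and -2.73 for Alkbh5, so Aurkc alone among these genes had a positive value.

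Among genes lower in pESCs it was 5.1 for Gm38393, 3.05 for Trh, 3.0 for Id3, 4.21 for Asna1, 2.75 for Ifrd2, 2.8 for Phb2, 2.99 for Foxh1 and 3.09 for Tmem42. It was 2.8 for Ascl4, 1.51 for Socs2, 3.31 for Psmd13, 2.93 for Utf1, 4.59 for Gm49369 and 2.81 for Gjb5. The genes were chosen for a large difference in stem cells, and the all-gene median differed by sign between the contrasts (-0.26 and 0.32). Gm2035 was listed at 0 TPM in every PGCLC library, so its value is only its stem cell difference with the sign turned. Elobl (0.295 to 1.40 TPM) and Trh (0.533 to 1.69 TPM) were near absent from the PGCLC libraries. For such genes the test does not show that an effect of origin changed. With 2 libraries a group, no library could be checked as an outlier within its group.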

How the results depend on the processing

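Depth and the shift of pESC 1 limit the counts. For all called genes, those higher, those lower and those called alike in PGCLCs (515, 116, 399 and 9 as reported), the counts were 213, 45, 168 and 4 with a filter of 0.1 TPM, 132, 29, 103 and 3 without a filter, 72, 27, 45 and 1 with the 4 stem cell libraries alone, 216, 183, 33 and 5 after median centring, and 1300, 186, 1114 and 28 without a fold minimum. Quantile normalization gave 307 higher and 164 lower, an unadjusted p 263 higher and 19 alike. Chosen after seeing the data, rescaled TPM gave 287, 221 higher and 66 lower, limma's voom on recovered reads 253 higher and 14 alike, and GC and length centring 208, 73 lower and 4 alike. Leaving out 1 library gave 6 to 1212 in all, 0 to 322 higher, 5 to 890 lower and 0 to 38 alike (6 without pESC 1, 1212 without pESC 2, 9 without ESC 1, 29 without ESC 2). With 1 library left in a group, limma assumes that it varies like the other groups. The cause of these changes was not tested. Replicate numbers did not pair the samples (correlation 0.05), and the fit with the replicate block called 495, with 14 alike in PGCLCs. Of the calls, 125 of 216 after centring, 132 of 208 after GC and length centring and 5 of 6 without pESC 1 were also called as reported. Over named genes, 712 values kept their call, 449 lost it, 6 gained it and 0 reversed. List and chromosome medians under quantile normalization were not run.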
